A study of Mus musculus with 12 samples.

Results

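*Sox10*, *Foxd3*, *Erbb3*, *Cdh19*, *Ednrb* and *Dhh* are 6 genes widely used to mark neural crest cells and the Schwann cells that descend from them. They were taken by name from the 45777 genes listed for every library, and each was matched by its NCBI Gene ID. RNA came from the ventral spinal cord of E12.5 mouse embryos, cut at the brachial (forelimb) and lumbar (hindlimb) levels and trimmed around *Hb9::GFP*, a reporter of motor neurons (MNs). At each level 3 libraries were made from *Isl2* +/- embryos (Het), the controls of the study, and 3 from *Isl2* KO embryos, which gives 12 libraries in 4 groups. No wild-type library was compared, so every control carried 1 mutant copy of *Isl2*, a LIM homeodomain factor of postmitotic MNs. The dissection was not a sort of labelled cells, so a library held every cell type of the trimmed piece, and in such bulk RNA fewer cells of a type and less RNA per cell cannot be told apart.

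Neural crest cells leave the dorsal neural tube and give rise to sensory and autonomic neurons, pigment cells and the glia of peripheral nerves. Foxd3 and Sox10 are transcription factors of early crest, and Sox10 is kept in the glial line, where it is needed for Schwann cell identity. ErbB3 is the receptor through which neuregulin from axons keeps Schwann cell precursors alive, and Ednrb is the receptor for endothelin 3 in migrating crest. Cdh19 is an adhesion molecule of Schwann cell precursors, and Dhh is the hedgehog ligand that Schwann cells send to the sheath around the nerve. Several of these genes have a second life inside the spinal cord: Sox10 and Erbb3 are also made by oligodendrocyte precursors, Ednrb by radial glia and progenitors, and Foxd3 by V1 interneurons.

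In these libraries the 6 genes did not behave as a single set of markers. *Ednrb* and *Foxd3* were abundant in all 12 libraries, *Erbb3* and *Sox10* lay near 1 TPM, and *Dhh* and *Cdh19* were close to 0. TPM, the transcript share of a library, is scaled to gene length, so it can be compared between genes, and all TPM values below were rescaled between libraries by a size factor. Over 12 libraries the mean was 91.3 ± 13.5 TPM for *Ednrb*, 17.2 ± 3.18 TPM for *Foxd3*, 0.989 ± 0.779 TPM for *Erbb3*, 0.936 ± 0.531 TPM for *Sox10* and 0.181 ± 0.0685 TPM for *Dhh* (SD, n = 12). *Cdh19* was listed at 0 in 4 libraries and reached 0.0959 TPM at most. The order *Ednrb*, *Foxd3*, then *Erbb3* and *Sox10*, held in each of the 12 libraries, while *Erbb3* and *Sox10* exchanged places between libraries and did not differ beyond their spread.

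The read coverage behind these values differed as widely. The mean depth per base of the gene was 180 to 350 reads for *Ednrb* and 33.6 to 72.6 for *Foxd3*. It was 0.891 to 7.43 for *Erbb3*, 0.277 to 5.82 for *Sox10*, 0.112 to 0.536 for *Dhh* and at most 0.149 for *Cdh19*. Values of *Erbb3* and *Sox10* therefore rested on few reads, and those of *Dhh* and *Cdh19* on fewer still.

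The 6 genes lie on 5 chromosomes of the mm10 mouse genome. *Ednrb* (Gene ID 13618) is at chr14:103814615-103844508 on the minus strand and *Foxd3* (Gene ID 15221), a gene of a single exon, at chr4:99656299-99658671 on the plus strand. *Erbb3* (Gene ID 13867) is at chr10:128567523-128589635 and *Sox10* (Gene ID 20665) at chr15:79154913-79164490, both on the minus strand. *Dhh* (Gene ID 13363) is at chr15:98881615-98898562 and *Cdh19* (Gene ID 227485) at chr1:110888002-110977601. *Ednrb* is overlapped on the other strand by the long non-coding RNA *Gm35197*, which reached 0.129 TPM at most, and *Erbb3* holds the microRNA gene *Mir6917* on its own strand, whose reads cannot be told from those of *Erbb3*.

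The sequence upstream of an annotated start of the 2 abundant members is shown because these are the genes whose RNA was plainly made in this tissue. The RefSeq promoter table (GRCm38.p6) held 3 of the 6 genes, *Foxd3*, *Ednrb* and *Dhh*. The 250 bases before the start that this table uses are given from 5′ to 3′ on the gene's strand, with capitals for the words ACAAAG and also ACAATG, and likewise TCAAAG and also TCAATG, on either strand, which are forms of the core site bound by Sox factors. For *Foxd3* that start is the 5′ end of the gene as given above, whereas for *Ednrb* it is position 103843701, which is 807 bases inside the gene's outer 5′ end, so the *Ednrb* window lies within the gene's coordinates.
Foxd3, chr4:99656049-99656298, plus strand: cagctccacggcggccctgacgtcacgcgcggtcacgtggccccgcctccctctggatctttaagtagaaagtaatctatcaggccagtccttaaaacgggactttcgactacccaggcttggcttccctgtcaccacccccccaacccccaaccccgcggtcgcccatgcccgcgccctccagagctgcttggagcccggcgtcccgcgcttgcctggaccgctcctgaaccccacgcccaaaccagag
Ednrb, chr14:103843702-103843951, minus strand: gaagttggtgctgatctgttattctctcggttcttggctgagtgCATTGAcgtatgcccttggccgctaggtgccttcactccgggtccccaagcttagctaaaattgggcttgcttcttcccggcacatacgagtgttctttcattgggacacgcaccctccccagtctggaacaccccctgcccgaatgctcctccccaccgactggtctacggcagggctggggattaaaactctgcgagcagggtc
The *Foxd3* window had 65.6% G and C and 21 CG pairs, a number that 16.3% of the 32851 windows of the table reached. The *Ednrb* window had 56.8% G and C and 11 CG pairs, which 35.6% of windows reached. The medians over all windows were 52.4% and 6 pairs. *Ednrb* held 1 of the Sox words, TCAATG on the opposite strand and starting 206 bases before the start, and *Foxd3* held none of them in this window. Of all windows, 39.4% held at least 1 such word, so that a match is common.

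*Ednrb* was the most abundant of the 6 genes at both levels. In brachial Het libraries it stood at 80.6, 78.1 and 85.7 TPM, and in brachial KO libraries at 82.6, 76.6 and 89.1 TPM. In lumbar Het libraries it stood at 82.4, 92.7 and 100.7 TPM, and in lumbar KO libraries at 97.3, 121 and 108 TPM. The brachial genotypes were interleaved, while the lumbar KO libraries lay high, with only the lowest of them, replicate 1, below a lumbar Het library.

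*Foxd3* had no such order. It stood at 19.3, 14.6 and 18.8 TPM in brachial Het libraries and at 17.5, 13.1 and 17.8 TPM in brachial KO libraries. Lumbar Het libraries had 21.9, 16.9 and 16.6 TPM, and lumbar KO libraries had 21.3, 17.9 and 10.9 TPM. All 4 groups overlapped, and the lowest and the highest value were both from the lumbar level.

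*Erbb3*, the neuregulin receptor, was present mostly at the brachial level. Its values were 1.46, 2.06 and 0.689 TPM in brachial Het libraries and 1.82, 2.52 and 0.878 TPM in brachial KO libraries. At the lumbar level they were 0.341, 0.686 and 0.308 TPM in Het and 0.477, 0.281 and 0.340 TPM in KO libraries. Every lumbar library lay below every brachial library, but the closest pair, brachial Het replicate 3 and lumbar Het replicate 2, had nearly the same value.

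*Sox10* followed a similar course with more overlap. Brachial Het libraries had 1.14, 1.70 and 0.805 TPM, and brachial KO libraries had 1.20, 1.97 and 0.835 TPM. Lumbar Het libraries had 0.944, 0.945 and 0.0919 TPM, and lumbar KO libraries had 0.615, 0.278 and 0.703 TPM. Lumbar Het replicate 3 was the lowest of all, far below the other Het libraries of its level. At the brachial level replicate 2 of each genotype was highest and replicate 3 lowest for *Sox10* and for *Erbb3* alike.

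*Dhh* was low everywhere. It had 0.120, 0.193 and 0.168 TPM in brachial Het, 0.280, 0.273 and 0.0847 TPM in brachial KO, 0.159, 0.196 and 0.285 TPM in lumbar Het, and 0.172, 0.133 and 0.104 TPM in lumbar KO libraries, and all groups overlapped. *Cdh19* had 0.00842, 0.0585 and 0 TPM in brachial Het, 0.0257, 0.0235 and 0.0432 TPM in brachial KO, 0.0178, 0.0178 and 0 TPM in lumbar Het, and 0, 0.0959 and 0 TPM in lumbar KO libraries. Neither gene reached the mean of 0.5 TPM that was asked of a tested gene, so no fold change is given for either.

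**Figure D1:**
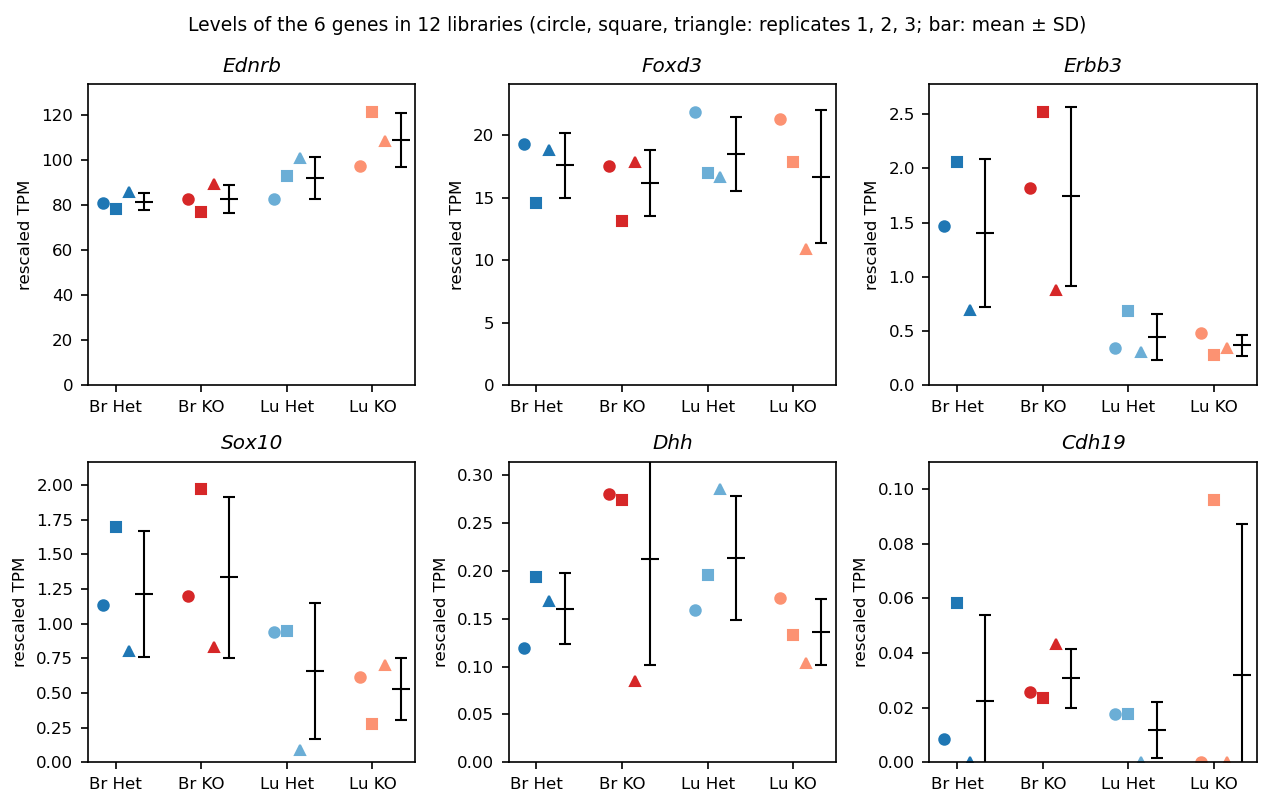
Level of each of the 6 genes in 12 libraries, as rescaled TPM on a linear axis that starts at 0 in each panel (Br, brachial; Lu, lumbar). Points are libraries, with circles, squares and triangles for replicates 1, 2 and 3, and the bars are group means ± SD (n = 3); *Erbb3* is lower in the 6 lumbar libraries than in any brachial one, *Ednrb* drifts upward, and *Foxd3*, *Dhh* and *Cdh19* overlap throughout.

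Other markers of the same cells were checked next, from 14 further genes of Schwann cell precursors and Schwann cells. *Egr2*, the factor that drives myelination, was near 0 and reached 0.113 TPM at most. The genes of this list with high values are also made inside the spinal cord: *Fabp7*, a lipid-binding protein of radial glia, ranged from 1154 to 2305 TPM, and *Pou3f1*, a factor also made by MNs, from 11.9 to 23.2 TPM. Markers of other crest derivatives were mixed. A mean under 0.5 TPM was found for 6 of 7 melanocyte genes, 3 of 6 autonomic neuron genes and 3 of 10 sensory neuron genes. *Mlana*, of melanocytes, and *Runx3*, of sensory neurons, were at 0 in all libraries, and *Hand2*, of sympathetic neurons, reached 0.041 TPM. Others on these lists were present: the mean was 7.52 TPM for *Kit*, 8.76 TPM for *Insm1* and 13.3 TPM for *Pou4f1*, of which *Insm1* and *Pou4f1* are also made by developing neurons of the cord. Under 0.5 TPM were also 2 of the 14 further Schwann cell genes and 3 of 16 further crest factors. The check of the label was thus mixed, with *Cdh19*, *Dhh* and *Egr2* close to 0 and most genes of these lists above that level, and the 6 genes are called here by their names only.

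**Figure D2:**
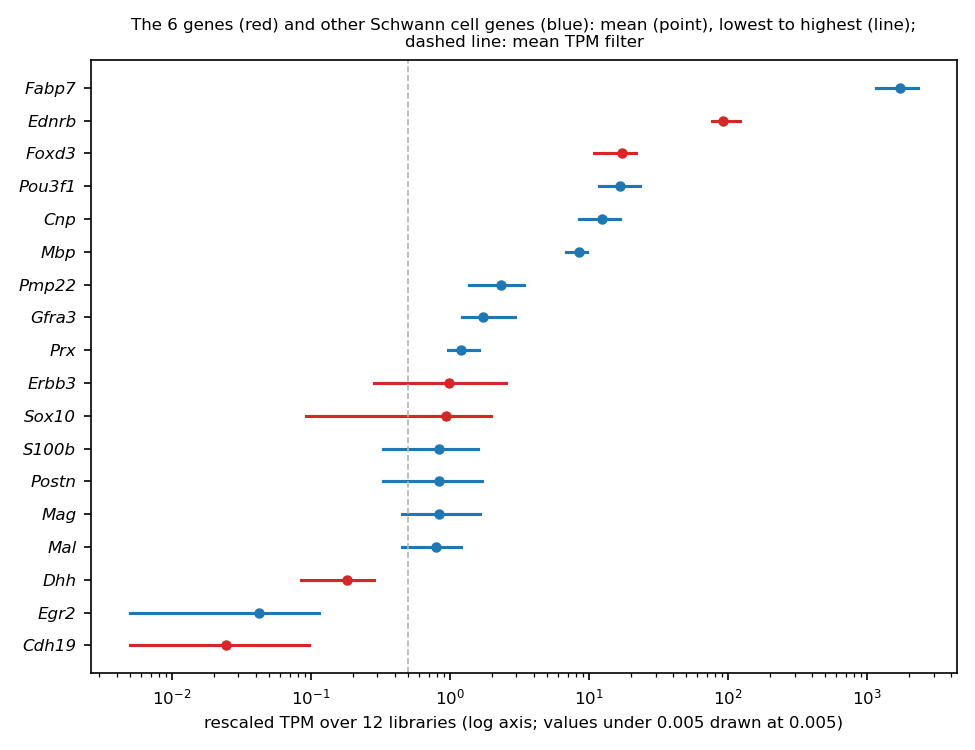
Rescaled TPM of the 6 genes (red) and of 12 other Schwann cell genes (blue) on a log axis, with the mean over 12 libraries as a point and the lowest to the highest library as a line. *Ednrb* and *Foxd3* are near the top, *Erbb3* and *Sox10* are near 1 TPM, and *Dhh*, *Egr2* and *Cdh19* lie left of the dashed line at 0.5 TPM, the filter on mean TPM.

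The first question put to the 6 genes was whether they differed between *Isl2* KO and Het libraries. They did not pass the test at either level. At the brachial level 4 of the 6 genes could be tested, and limma called none at an adjusted p under 0.05, an unadjusted p under 0.05 (13.9% of all genes) or the threshold of the study (a log2 fold change beyond 0.5 with an unadjusted p under 0.05). Of all 16935 genes tested there, 0.0059% passed the adjusted threshold and 3.14% that of the study. At the lumbar level 3 of the 6 could be tested, since *Erbb3* fell under the filter. None was called, although *Ednrb* had an unadjusted p of 0.0481 in limma, where 4.86% of all 16511 genes lay under 0.05, 0% passed the adjusted threshold and 1.76% met that of the study.

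For the abundant genes the intervals were narrow. The KO to Het difference of *Ednrb* was 0.02 ± 0.08 (log2, SE) at the brachial level, with a 95% interval from -0.16 to 0.20, and limma gave an adjusted p of 0.908. At the lumbar level it was 0.24 ± 0.10, from 0.0026 to 0.48, with an adjusted p of 0.997 in limma. *Foxd3* differed by -0.12 ± 0.16 at the brachial level, with an interval from -0.49 to 0.24, and by -0.19 ± 0.24 at the lumbar level, from -0.74 to 0.36. A log2 change of 1 lay outside all 4 of these intervals.

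For the scarce genes the data set wider limits. *Erbb3* differed by 0.30 ± 0.47 at the brachial level, with an interval from -0.81 to 1.40. *Sox10* differed by 0.11 ± 0.38 at the brachial level, from -0.77 to 0.99, and by 0.02 ± 0.70 at the lumbar level, from -1.60 to 1.63. The lumbar *Sox10* value turned on single libraries, and its sign held in 3 of 6 fits with 1 library removed. Without lumbar Het replicate 3, the low one, the difference was -0.80 ± 0.44, with an adjusted p of 0.994 in limma. Without lumbar Het replicate 1 it was 0.42.

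The lists of companion genes were read for genotype in the same way. Among the 58 further genes of crest factors, Schwann cells and the neuregulin, endothelin and hedgehog systems, none passed the adjusted threshold at either level. A few met the threshold of the study, met by 3.14% of all brachial and 1.76% of all lumbar genes tested. At the threshold of the study, *Ptch1*, the hedgehog receptor and target, was higher in brachial KO libraries (0.52 ± 0.19, adjusted p = 0.358 in limma), *Gli3*, a hedgehog effector, was higher in lumbar KO libraries (0.74 ± 0.31, adjusted p = 0.997) and *S100b*, a calcium-binding protein of glia, was lower there (-0.84 ± 0.35, adjusted p = 0.997). The value of *Ptch1* was 0.31 without brachial KO replicate 3 and that of *Gli3* 0.46 without lumbar KO replicate 3, both inside the fold limit of that threshold. That of *S100b* was -0.36 in the weakest of the alternatives, also inside that limit. Its difference of KO effects, lumbar minus brachial, was -1.42. No crest factor, neuregulin or endothelin gene met the threshold of the study at either level. In brachial libraries the median KO difference was 0.24 for crest factors, 0.09 for Schwann cell genes and 0.24 for the neuregulin system. It was 0.10 for the endothelin and 0.31 for the hedgehog system, against -0.0019 over all genes. In lumbar libraries the medians were 0.26, -0.09, -0.06, 0.01 and 0.13 in the same order, against -0.0057. These medians were not tested.

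*Isl2* itself, the targeted gene, was read in the same fits. Its level was 8.71, 8.36 and 9.67 TPM in brachial Het and 6.03, 7.34 and 4.52 TPM in brachial KO libraries, and 10.3, 8.42 and 9.36 TPM in lumbar Het and 7.33, 6.48 and 8.27 TPM in lumbar KO libraries. The genotypes did not overlap at either level, as was the case for 20.2% of all genes tested at the brachial and 9.94% at the lumbar one. The differences were -0.60 ± 0.18 and -0.34 ± 0.13, so that RNA of the gene was still present in the libraries labelled KO, and neither passed the adjusted threshold in limma (adjusted p = 0.358 and 0.997).

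Whether the KO effect on the 6 genes differed between levels was tested as an interaction over 12 libraries. No member passed the adjusted threshold or an unadjusted p of 0.05 in limma, and neither did any of all 16736 genes pass the adjusted one (0%), while 4.44% had an unadjusted p under 0.05 and 2.01% met the threshold of the study. The difference of effects, lumbar minus brachial, was 0.22 ± 0.14 for *Ednrb*, -0.07 ± 0.32 for *Foxd3*, -0.48 ± 0.64 for *Erbb3* and -0.09 ± 0.86 for *Sox10*. That of *Erbb3* was -0.073 without brachial Het replicate 3 and -0.88 without brachial KO replicate 3, and that of *Ednrb* was 0.063 with TPM as deposited.

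**Figure D3:**
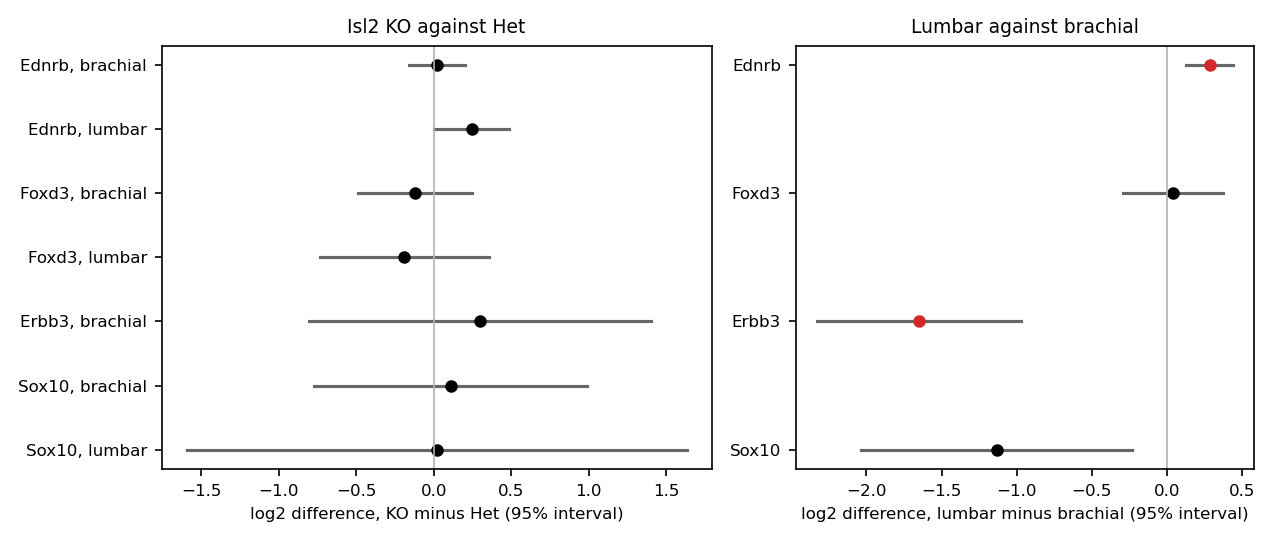
Log2 differences of the tested genes with 95% intervals, KO minus Het at each level (left, 6 libraries a fit) and lumbar minus brachial (right, 12 libraries). Red points passed an adjusted p of 0.05 in limma: *Erbb3* at -1.65, a gene that reached the filter through its brachial libraries, and *Ednrb* at 0.28, both between levels, while no genotype difference did.

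Between the levels the 6 genes parted. *Erbb3* was lower and *Ednrb* higher at the lumbar level, and *Foxd3* was nearly level. The comparison used all 12 libraries with genotype as a covariate. *Erbb3* fell by 1.65 ± 0.31 on the log2(TPM + 0.1) scale, with an adjusted p of 0.00382 in limma and an interval from -2.33 to -0.97. *Ednrb* rose by 0.28 ± 0.07, or 1.22-fold, with an adjusted p of 0.0175 in limma and an interval from 0.13 to 0.44. Of all 16736 genes tested, 18.9% passed the adjusted threshold, 10.1% lower and 8.77% higher at the lumbar level, and the members called were *Erbb3* and *Ednrb*. The filter asked for a mean of 0.5 TPM over all 12 libraries, and *Erbb3*, at 1.57 TPM brachial and 0.406 TPM lumbar, reached it through its brachial libraries, so the number of members called is a description only. With no filter its adjusted p was 0.0107 in limma. The groups of *Erbb3* did not overlap, as did not those of 8.32% of all genes.

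*Sox10* lay in the same direction as *Erbb3* without passing: -1.13 ± 0.41, interval -2.03 to -0.24, with an unadjusted p of 0.0174 and an adjusted p of 0.0763 in limma. Like *Erbb3* it met the threshold of the study, as did 10.3% of all genes in either direction and 6.05% in this one, while 32.4% had an unadjusted p under 0.05. Its adjusted p stayed above 0.05 in 11 of 12 fits with 1 library removed, and was 0.0445 in limma without lumbar Het replicate 1. Leaving out lumbar Het replicate 3 gave a difference of -0.78. *Sox10* met the threshold of the study in all 12 of these fits. *Foxd3* differed by 0.04 ± 0.15, from -0.29 to 0.37, with an adjusted p of 0.890 in limma. The rise of *Ednrb* was no longer past the threshold with TPM as deposited, where it was 0.15 with an adjusted p of 0.0674 in limma, and where the median of all genes itself moved to -0.13.

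Both genotypes took part in the change of *Erbb3*. Its mean was 1.40 ± 0.686 TPM in brachial and 0.445 ± 0.209 TPM in lumbar Het libraries, and 1.74 ± 0.825 TPM in brachial and 0.366 ± 0.101 TPM in lumbar KO libraries (SD, n = 3). For *Ednrb* the step was from 81.4 ± 3.86 to 91.9 ± 9.15 TPM in Het and from 82.8 ± 6.23 to 109 ± 11.96 TPM in KO libraries (SD, n = 3). For *Sox10* it was from 1.21 ± 0.452 to 0.660 ± 0.492 TPM in Het and from 1.34 ± 0.580 to 0.532 ± 0.224 TPM in KO libraries (SD, n = 3). The direction was the same in Het and KO for all 3 genes. Brachial and lumbar pieces are separate libraries, so the level and any difference in dissection cannot be told apart.

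The genes that work with these receptors and ligands were read from lists. Of 7 neuregulin system genes, 6 were tested between the levels, none rose, and *Egfr* and *Nrg3* fell, by 1.06 ± 0.23 and 0.61 ± 0.19 on the log2 scale (adjusted p = 0.00798 and 0.0421 in limma), where 10.1% of all genes fell. *Egfr* reached the filter through its brachial libraries, with a mean of 0.808 TPM brachial and 0.343 TPM lumbar, and its adjusted p was 0.0273 at most over the alternatives, a fit with no filter among them. The call on *Nrg3* held in 3 of 12 fits with 1 library removed. *Nrg1*, the ligand that Schwann cell precursors read through ErbB3, was abundant, at 17.1 TPM brachial and 13.3 TPM lumbar (adjusted p = 0.0834 in limma), and *Erbb2*, the partner that ErbB3 needs for signalling, had 4.11 and 3.49 TPM (adjusted p = 0.287). *Erbb2* thus exceeded *Erbb3* in TPM at both levels. *Erbb4*, the neuregulin receptor of neurons, had 26.2 and 23.1 TPM, so that the receptor highest in this tissue was not *Erbb3*.

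Of 6 other endothelin genes, 4 were tested, none rose, and *Edn1* fell by 1.37 ± 0.20 (adjusted p = 0.000837 in limma), from 1.69 to 0.598 TPM, where 10.1% of all genes fell. *Edn1* is made by endothelium, whose list of 8 genes had 4 lower and none higher, with a summed level of 78.5 to 104.6 TPM over brachial and 66.5 to 81.7 TPM over lumbar libraries. The part of endothelium in the *Edn1* level was not tested. *Edn3*, the ligand of Ednrb in crest, stayed at or below 0.132 TPM in every library, against at least 76.6 TPM for its receptor. *Ednra*, the other receptor, had 2.08 TPM brachial and 1.70 TPM lumbar. *Ece1*, the enzyme that cuts endothelins to their active form, had 11.8 and 9.85 TPM, and neither passed (adjusted p = 0.364 and 0.183 in limma).

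Of 15 other hedgehog genes, 14 were tested, 2 rose and none fell at the lumbar level, where 8.77% of all genes rose. *Smo*, the signal transducer, rose by 0.29 ± 0.07 and *Hhip*, a target and decoy receptor, by 0.50 ± 0.13 (adjusted p = 0.0124 and 0.0206 in limma). The call on *Hhip* held in 10 of 12 fits with 1 library removed and was lost without brachial Het replicate 2 or lumbar Het replicate 3. With TPM as deposited neither passed, and 0 of the 14 did (adjusted p = 0.113 in limma for *Smo*). *Shh*, the ligand of floor plate, had 6.72 TPM brachial and 8.86 TPM lumbar (adjusted p = 0.0888), far above the 0.187 and 0.175 TPM of *Dhh* and the 0.0659 and 0.132 TPM of *Ihh*. *Ptch1*, the receptor and target of all 3 ligands, had 24.2 and 24.3 TPM. The median difference of the list was 0.31 against 0.01 over all genes.

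Of the 14 other Schwann cell genes, 12 were tested, 5 fell and none rose at the lumbar level, against 10.1% of all genes that fell. The 5 were *Cnp* (-0.58 ± 0.06), *Fabp7* (-0.40 ± 0.10), *Mal* (-0.68 ± 0.17), *Pmp22* (-0.56 ± 0.15) and *Postn* (-1.01 ± 0.26). *Cnp* and *Mal* encode proteins of myelin-forming glia, Fabp7 marks radial glia, Pmp22 is a protein of peripheral myelin and Postn is a matrix protein. The median of the list was -0.37, against 0.01 over all genes. Of the 16 other crest factors, 13 were tested, 1 was higher, *Zeb2*, and 2 were lower, *Sox8* and *Ets1*, where 8.77% of all genes rose and 10.1% fell. The call on *Zeb2* held in 3 of 12 fits with 1 library removed and was lost with TPM as deposited (adjusted p = 0.555 in limma). *Sox8*, a relative of Sox10 in both crest and oligodendrocyte precursors, went from 4.80 to 2.83 TPM (-0.74 ± 0.17, adjusted p = 0.0112 in limma). *Ngfr*, the low-affinity neurotrophin receptor of crest that MNs make too, stood at 71.4 and 82.0 TPM (adjusted p = 0.491).

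**Figure D4:**
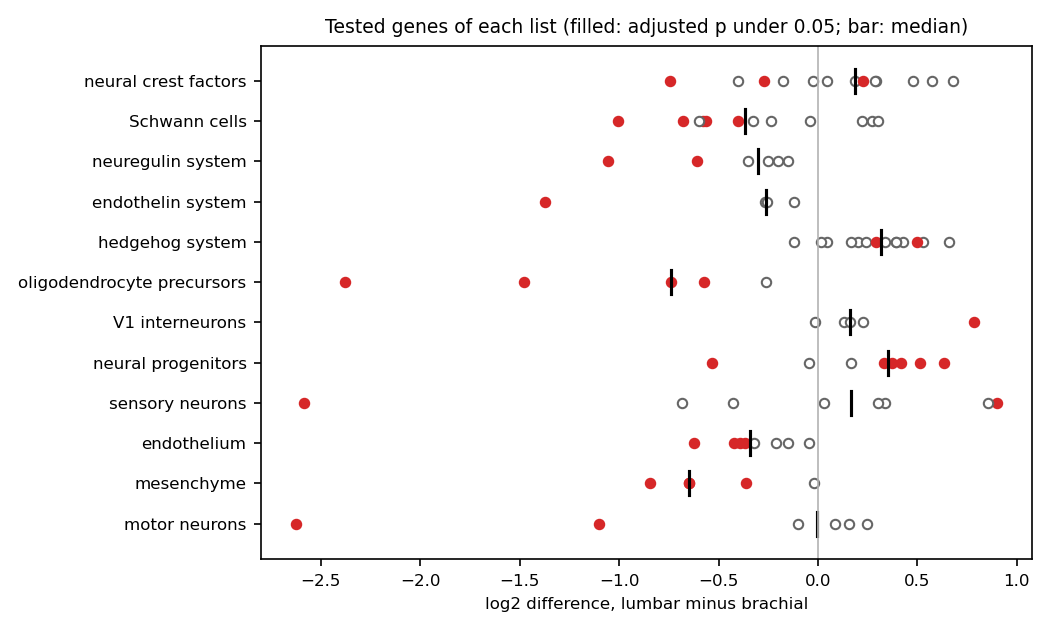
Log2 difference, lumbar minus brachial, of each tested gene in 12 lists (rows), with filled red points for an adjusted p under 0.05 in limma and a black bar for the list's median. The lists of oligodendrocyte precursors and Schwann cells have red points on the left of 0, with 4 and 5 lower genes, and the list of neural progenitors has 5 red points on the right and 1 on the left.

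Markers of cells of the cord that are known to make *Sox10*, *Erbb3* or *Ednrb* were read between the same libraries. Of 5 genes of oligodendrocyte precursors and their progenitor domain, 4 fell at the lumbar level and none rose, against 10.1% of all genes that fell and 8.77% that rose. *Olig1* fell by 2.38 ± 0.45, *Pdgfra* by 1.48 ± 0.38, *Olig2* by 0.74 ± 0.16 and *Cspg4* by 0.57 ± 0.18 on the log2 scale (adjusted p = 0.00363, 0.0168, 0.00872 and 0.0396 in limma). *Pdgfra*, at 1.78 TPM brachial and 0.513 TPM lumbar, reached the filter largely through its brachial libraries, so the number of genes that fell is a description only. The adjusted p of *Pdgfra* was 0.0462 at most in limma over the alternatives, a fit with no filter among them. The summed level of this list ran from 9.97 to 18.7 TPM in brachial Het, from 10.7 to 20.2 TPM in brachial KO, from 5.19 to 7.87 TPM in lumbar Het and from 5.38 to 8.59 TPM in lumbar KO libraries, and none of its genes was at 0 in any library. Of 8 neural progenitor genes, 5 rose and 1 fell: *Hes5* rose by 0.51 ± 0.10 and *Vim* by 0.33 ± 0.07, and *Slc1a3* fell by 0.53 ± 0.08. With TPM as deposited 4 rose and 1 fell. The summed level of that list ran from 930.3 to 1134 TPM over brachial and from 1142 to 1431 TPM over lumbar libraries. Lists of other cells fell as well, with 4 of 8 endothelium genes and 4 of 5 tested mesenchyme genes lower and none higher, and *Pdgfra* and *Cspg4* are also made by mesenchyme and pericytes. The part of any of these lists in the levels of *Erbb3*, *Sox10* and *Ednrb* was not tested.

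Single libraries were compared next. The brachial libraries highest for *Sox10* and *Erbb3*, replicate 2 of each genotype, were also highest for *Pdgfra*, at 2.66 and 3.47 TPM, and for *Olig1*, at 6.23 and 7.22 TPM, and replicate 3 was lowest for both, at 1.14 and 0.602 TPM and at 3.29 and 1.87 TPM. Over 12 libraries and on the log2 scale, Pearson's r of *Erbb3* was 0.94 with *Olig2*, 0.91 with *Pdgfra* and 0.90 with *Olig1*, and that of *Sox10* was 0.86 with *Pdgfra*. After the 4 group means were subtracted, *Erbb3* kept an r of 0.84 with *Pdgfra* and *Sox10* one of 0.76. These values carry no test, since the 12 libraries fall into groups by level and genotype and differ in depth. Other genes, named below, were more like *Sox10* and *Erbb3* than these were. Values for *Cspg4* and *Nkx2-2* of the same list, and for *Sox10* with *Olig1* and *Olig2*, are not reported here.

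The 6 genes were alike only in part among themselves. *Sox10* and *Erbb3* had an r of 0.79 over 12 libraries and 0.64 after group means were subtracted. *Ednrb* ran against both, with an r of -0.77 with *Sox10* and -0.80 with *Erbb3*. *Foxd3* had an r between -0.21 and -0.10 with these 3. Among 13271 protein-coding genes with a mean of at least 0.5 TPM, *Erbb3* ranked 839th in likeness to *Sox10*.

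**Figure D5:**
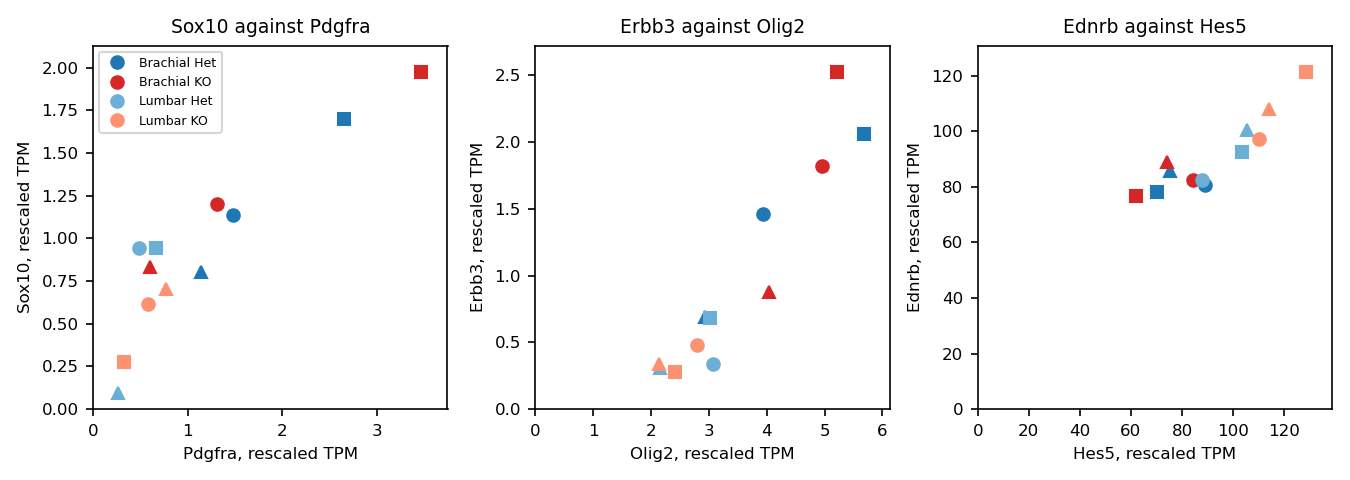
Rescaled TPM of *Sox10* against *Pdgfra*, of *Erbb3* against *Olig2* and of *Ednrb* against *Hes5* in 12 libraries, on linear axes that start at 0; colours are groups, and circles, squares and triangles are replicates 1, 2 and 3. In the first 2 panels brachial replicate 2 of both genotypes is at the upper right and the lumbar libraries are at the lower left. Brachial KO replicate 3 in the first panel and brachial Het replicate 3 in the second lie near the lumbar libraries. In the last panel the lumbar libraries, except lumbar Het replicate 1 among the brachial ones, are at the upper right.

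Of the genes whose levels were most like those of *Sox10*, the 10 highest were *Slc7a10* (r = 0.96), *Dscaml1*, *Slc1a6*, *Car10*, *Mmp2*, *Apoe*, *Slc38a5*, *Slc16a7*, *Nckap1l* and *Prelid3a* (r = 0.92), over 12 libraries. *Slc7a10*, *Slc1a6*, *Slc38a5* and *Slc16a7* encode membrane transporters, and Apoe is a lipid carrier made by glia and macrophages. After group means were subtracted, the 5 highest were *Slc1a6*, *Nkd2*, *Hoxc5*, *Lysmd2* and *Enc1*, with r from 0.95 to 0.97, so that *Slc1a6* was on both lists. For *Erbb3* the leading genes were *Cpt1a*, *Slc38a3* and *Ndrg2* (r = 0.97, 0.97 and 0.96), and *Olig2* ranked 15th of the 13271 genes. *Ednrb* was most like *Dsn1*, *Pgpep1* and *Limd1*, with *Smo* at rank 11 (r = 0.95).

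*Foxd3* had its own company. Its most similar genes over 12 libraries were *Sbk1*, *Cdr2* and *Nkx1-1* (r = 0.94, 0.93 and 0.92), and the same 3 were among its 4 closest after group means were subtracted. *En1*, the defining factor of V1 interneurons, had an r of 0.51 with *Foxd3* over 12 libraries, where it ranked 654th, and of 0.78 after subtraction, where it ranked 175th. Of 5 V1 genes, 1 passed the adjusted threshold between levels, where 8.77% of all genes rose: *En1* was higher by 0.79 ± 0.21 (adjusted p = 0.0210 in limma, and 0.0606 with TPM as deposited). That call held in 8 of 12 fits with 1 library removed, and was lost without replicate 2 of brachial Het, brachial KO or lumbar KO or without lumbar Het replicate 3. The list's summed level ran from 71.7 to 118 TPM over brachial and from 86.7 to 107 TPM over lumbar libraries. *Foxd3* had 16.9 TPM brachial and 17.6 TPM lumbar. The part of these neurons in the *Foxd3* level was not tested.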

How the data were processed

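Total RNA of 12 libraries was sequenced after ribosomal RNA depletion with a stranded kit. Per the labels and the methods of the study, the authors used Trimmomatic 0.38 for trimming, HISAT2 2.1.0 and Bowtie2 2.3.4.1 for mapping to mm10, and StringTie 2.1.3b for abundances, library by library. TPM is a deposited value from StringTie, scaled to gene length and to a fixed total. The deposited FPKM values and the deposited coverage values (mean reads per base of a gene) came from the same run by the authors. The tables hold no counts, so the count-based DESeq2 test of the study was not repeated.

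Each library's TPM was divided by a size factor from the median of ratios (0.899 to 1.24), then log2(TPM + 0.1) was taken as input for limma 3.58.1 (lmFit, eBayes with trend, R 4.3.3), over genes with a mean deposited TPM of at least 0.5 in the libraries of the fit. Adding 0.1 understates changes of scarce genes, and fold changes are on this scale. KO was compared with Het in the 6 libraries of each level. Level (genotype as covariate) and the interaction of level and genotype used all 12. Calls used a Benjamini-Hochberg adjusted p of 0.05, or the threshold of the study. Adjusted p-values are over all genes of a fit and are two-sided. Depth, taken as coverage divided by FPKM, was 4.48 to 6.64 Gb of aligned bases a library, and brachial KO replicate 3 had the least. Without counts, no counting error can be given. The fit was tested on simulated data before use.

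Of 45777 gene IDs, 45679 had a RefSeq symbol, and 96.2% had the same coordinates there. The 6 genes, the lists and the tests were chosen with earlier results of these data known. Named genes are the 6, *Isl2*, the 2 most abundant and up to 3 with the smallest p of each list, and the genes most correlated with *Sox10*. The genes most like *Erbb3*, *Ednrb* and *Foxd3*, and other list genes named for their role, were added after values were seen. Some genes of the lists are counted but not reported by name here.

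Alternatives were pseudocounts of 0.001 and 1, no filter and a filter of 1 TPM, FPKM or coverage in place of TPM, TPM as deposited, quantile normalization, protein-coding genes only, eBayes without trend, all 12 libraries in a fit, replicate number as a block, and leaving out each library. Each library is labelled as a replicate and the study names 3 animals per genotype, but the labels do not say which brachial and lumbar libraries share an embryo, so p-values measure the spread between these libraries. *Eif2s3y*, a gene of the Y chromosome, was above 0 in 4 of 6 brachial and 3 of 6 lumbar libraries. The brachial and lumbar libraries thus cannot all be pairs from the same embryos, and sex was not a covariate. Figures were drawn with Python 3.11.15, pandas 2.3.3 and matplotlib 3.10.9.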

Additional observations from a re-analysis of the deposited data

How the results depend on the processing

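The calls on the members kept their number in all fits but a few. Between levels, 2 members passed the adjusted threshold, which 18.9% of all genes passed. With TPM as deposited 1 did, *Erbb3*, and with single libraries left out 2 to 3 did. *Erbb3* reached the filter through its brachial libraries, so these numbers are a description only. At the threshold of the study 2 members were lower at the lumbar level, as were 6.05% of all genes, and 1 with a filter of 1 TPM, which removed *Sox10*. No alternative gave a member that passed either threshold for genotype or for the interaction. The difference of *Erbb3* between levels ran from -1.88 to -0.83 over the alternatives and from -1.86 to -1.49 with a library left out. TPM as deposited moved the median of all genes by 0.16 between brachial genotypes and to -0.13 between levels. It turned *Foxd3* to 0.042 in brachial KO and to -0.094 between levels, and moved *Ednrb* in brachial KO to 0.19 ± 0.08 (adjusted p = 0.301 in limma). Lumbar *Sox10* in KO turned to -0.077 with a pseudocount of 1, -0.039 with FPKM and -0.20 with quantile normalization, and its interaction to 0.0655 with a pseudocount of 0.001. The cause was not tested. With libraries left out in turn, brachial KO differences ran from -0.19 to 0.38 for *Sox10*, -0.11 to 0.70 for *Erbb3*, -0.25 to 0.019 for *Foxd3* and -0.033 to 0.075 for *Ednrb*. Lumbar ones ran from -0.80 to 0.43 for *Sox10* and -0.39 to 0.0898 for *Foxd3*, the level difference of *Foxd3* from -0.047 to 0.17, and the interaction from -0.91 to 0.32 for *Sox10* and -0.27 to 0.21 for *Foxd3*. With 1 of 3 libraries left out, the spread was pooled over the groups of the fit.

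The labels do not say what a replicate number marks, and the numbers were not taken as pairs, since not every correlation between libraries of the same number was above 0.1. The correlations of their deviations from group means were 0.079, 0.23 and 0.0095 between brachial Het and KO, 0.14, -0.21 and -0.094 between lumbar Het and KO, and -0.21 to 0.34 between levels. In 4 of 6 brachial and 2 of 6 lumbar libraries the highest correlation with the other genotype was that of the own number. With the replicate block the difference between levels was -1.65 for *Erbb3* (adjusted p = 0.00767 in limma) and 0.28 for *Ednrb* (adjusted p = 0.0389), and *Erbb3* reached the filter through its brachial libraries here too. The block changed no call on a member. Depth limits *Sox10*, *Erbb3*, *Dhh* and *Cdh19*, whose coverage was at most 7.43 reads per base.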

Other observations

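Other crest derivatives and the boundary between cord and nerve were read from the remaining lists, between levels where 8.77% of all genes rose and 10.1% fell. Of 6 autonomic neuron genes, 3 were tested, 2 rose at the lumbar level and 0 fell. *Insm1* rose by 0.51 and *Th* by 0.72, the latter from 0.726 to 1.23 TPM, and both calls held in all 12 fits with 1 library removed. Of 5 boundary cap genes, 3 were tested between levels: *Npr3*, a natriuretic peptide clearance receptor, rose by 1.08 ± 0.10 at the lumbar level (adjusted p = 5.04e-05 in limma), and *Cdh7* and *Hey2* fell by 0.79 ± 0.11 and 0.48 ± 0.14 (adjusted p = 0.000959 and 0.0278), of which the call on *Hey2* held in 6 of 12 fits with 1 library removed. *Prss56*, the most specific of the 5, reached 0.275 TPM at most. Of 10 sensory neuron genes, 8 were tested, and *Neurog1* was higher by 0.90 ± 0.27 (adjusted p = 0.0356 in limma), a call that held in 5 of 12 fits with 1 library removed. *Runx1* passed the filter only through its brachial libraries, with 0.487 to 1.31 TPM against at most 0.103 TPM in lumbar ones and 0 in 1 of them, so that its fold change depends on the pseudocount and is not given. Between brachial genotypes 2 of 7 tested sensory neuron genes met the threshold of the study, as did 3.14% of all genes, and none passed the adjusted one. *Neurog1* was higher in KO by 0.63 and *Prdm12* by 0.97, and *Neurog1* was at 0.48 in the weakest fit with 1 library removed.

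*Ednrb* and *Olig1* ran against each other over the 12 libraries, with Pearson's r of -0.96 on the log2 scale and -0.88 after group means were subtracted, the former among the lowest of 13271 protein-coding genes (rank 13264). This value is a description of 12 libraries and was not tested. Of 10 mesenchyme genes, 5 were tested, 4 fell at the lumbar level and none rose, against 10.1% of all genes that fell, although the calls on *Col1a2* and *Dcn* held in 6 and 5 of 12 fits with 1 library removed, and the summed level of the list ran from 71.7 to 96.4 TPM over brachial and from 49.4 to 70.5 TPM over lumbar libraries. Of 5 muscle genes, 4 had a mean under 0.5 TPM, with *Myod1* at 0 in all libraries. Of 6 MN genes, *Prph* and *Slc5a7* fell by 2.62 ± 0.14 and 1.10 ± 0.10 at the lumbar level (adjusted p = 1.69e-07 and 2.19e-05 in limma) and none rose.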
